A study of Oncorhynchus mykiss with 69 samples.

Results

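The gill cell line of rainbow trout (Oncorhynchus mykiss), RTgill-W1, was compared between untreated controls and the 3 lowest of 5 methylmercury concentrations. Its libraries were taken by line, chemical and concentration in the sample titles, which gave 8 of the 69 libraries of the series. The titles give the concentrations as 0.001, 0.01 and 0.1, and the deposited tables give the same groups as 0.25, 2.5 and 25, that is 250 times the title value, with no unit on either scale. The table scale is used below.

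Each of the 4 groups (control, 0.25, 2.5 and 25) held 2 libraries. The cells were at passage 61-66, were grown at 19 °C in L-15 medium with 10% fetal bovine serum and 1% Penicillin/Streptomycin, and were exposed for 24 h. The control titles read ctrl, and no vehicle is stated. The remaining gill groups of that experiment, at 125 and 250, are given only to show where a gene went next. Liver and gut lines were exposed to the same concentrations. Nothing in the labels says whether the libraries of a group came from separate cultures, so the p-values measure only the spread between these samples, which may be technical. All groups come from 1 line, and a rise could be more RNA per cell or a larger share of cells with the RNA, which cannot be told apart in bulk RNA.

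Methylmercury binds the thiol groups of cysteines in proteins and of glutathione, the main small thiol of the cell. Keap1 is a thiol-rich adaptor that holds the transcription factor Nrf2 at a low level. When its cysteines are modified, Nrf2 accumulates and raises genes that make, recycle and use glutathione and that export its conjugates. In mammals that programme is a well known response to methylmercury.

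Values for single libraries were not used, because the deposited table holds the log2 difference of each group from control, the mean over the 12 gill libraries and an F statistic with its p-value. From these the group levels were worked back as normalised read counts, each the mean of a pair of libraries on the log2 scale. The depth, as far as it can be worked back, was 8801266 to 9982937 reads per library in the 4 groups. The genes numbered 22579, of which 17250 (76.4%) had a locus identifier and no symbol. Every difference below is on the log2 scale and is relative to the median gene, which itself moved by 0.04 at 0.25, 0.05 at 2.5 and -0.05 at 25. The standard error (SE) rests on the variance of all 12 gill libraries, including those at 125 and 250. A gene is called where its Benjamini-Hochberg adjusted p over all genes, from the moderated test recovered from the deposited fit, is under 0.05.

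The line label was set against marker lists. Of the epithelial markers 3 were matched by symbol (tjp3, krt18b and esrp1), and their summed level was 20.2 to 37.3 counts over the 4 groups. Of the fibroblast and mesenchymal markers 6 were matched, with a summed level of 82096 to 87382 counts, most of it from the collagen genes col1a2 and col1a1a. Of the gill ionocyte markers 4 were matched, with 3734 to 3855 counts, nearly all from the ion cotransporter gene slc12a2. The leukocyte, hepatocyte, and endothelial and erythroid lists had 1, 1 and 4 matched members and summed levels of at most 2.02, 1.79 and 46.2 counts. The matched epithelial markers thus had few reads and the collagen genes many in the line labelled gill. Other listed epithelial markers, such as epcam and cdh1, had no matching symbol, and 76.4% of genes had no symbol. The level of those markers is thus not known here. No member of the 6 marker lists was called against control at 0.25, 2.5 or 25. Against the mean of the 3 lower groups esrp1, a splicing factor gene of epithelia, was called lower at 25 (adjusted p = 0.0174, and 0.0513 against control). It had 5.55, 7.23, 5.60 and 0 counts in the 4 groups, then 5.24 at 125 and 8.52 at 250. The pair at 25 was thus the one group without reads.

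At 0.25 and 2.5 almost nothing could be told from control, and what was called was nearly all made of genes with no reads in 1 pair of libraries. At 0.25, 5 genes were called (0.0221% of 22579), 3 higher (0.0133%) and 2 lower (0.00886%), and 789 had an unadjusted p under 0.05 (3.49%). At 2.5, 8 genes were called (0.0354%), 4 higher (0.0177%) and 4 lower (0.0177%), with 840 at an unadjusted p under 0.05 (3.72%). All 5 genes at 0.25 and 7 of the 8 at 2.5 had 0 reads in the control pair or in the exposed pair, and 5 and 4 of them averaged under 10 counts over the 6 gill groups. No member of any list of stress, metabolic or marker genes was called at either concentration. With SEs raised to the median of genes at a like mean level, 0 genes were called at either concentration, and with p-values adjusted over the 3 concentrations together 12 and 16 were. The comparisons share the control libraries, so a low or high control pair enters each of them.

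**Figure D1:**
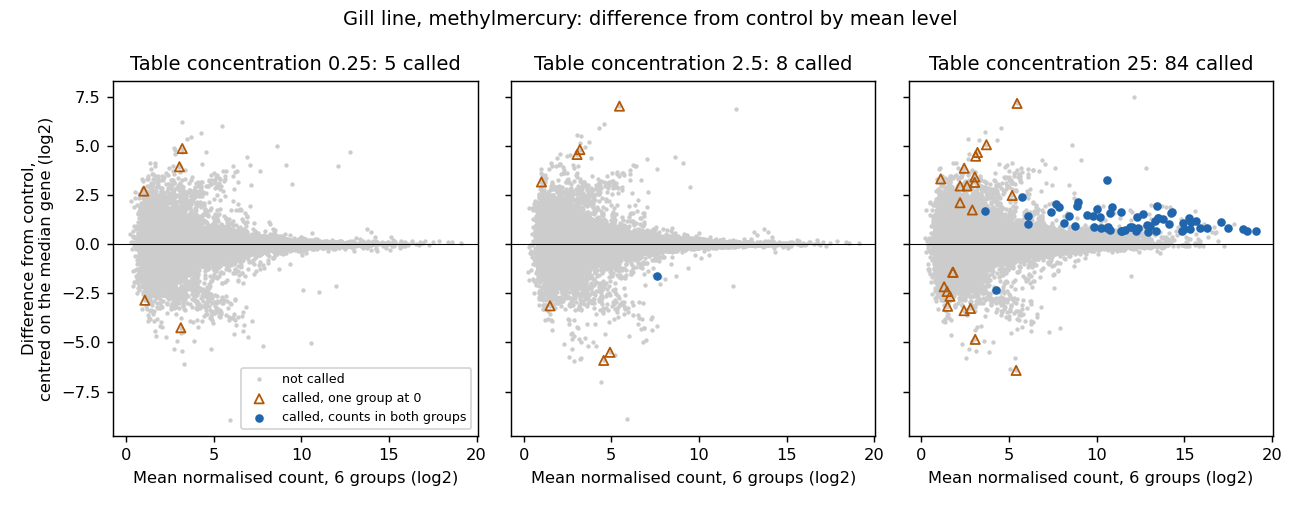
Each point is a gene of the gill line, with its mean normalised count over the 6 groups (log2) on the horizontal axis and its difference from control, relative to the median gene (log2), on the vertical axis, for 0.25, 2.5 and 25. Triangles are called genes with 0 reads in the control or the exposed pair, where the plotted value depends on the offset of 0.5 counts, and filled circles are called genes with reads in both: there are none at 0.25, 1 at 2.5 and 61 at 25.

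LOC110509111 was listed at 0 in the control pair and at 31.7, 64.6 and 71.2 normalised counts at 0.25, 2.5 and 25. Taking the floor as 3 counts per library, it was at least 3.20, 4.22 and 4.36 higher than control on the log2 scale. The adjusted p was 0.06975, 0.0311 and 0.0104 in the same order, so it was called at 2.5 and 25 and not at 0.25. It also stood at 61.6 counts at 125 and 31.9 at 250, so the control pair was the one group without reads.

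LOC110539033 had the same shape, with 0 counts in control and 14.1, 13.6 and 12.2 at the 3 concentrations, at least 2.06, 2.01 and 1.86 higher (adjusted p of 0.0298, 0.0268 and 0.0104). LOC110535623 had 0, 7.18, 11.3 and 3.93 counts and was called at each concentration (adjusted p of 0.0196, 0.0056 and 0.0104). Those were the 2 genes called at all 3 concentrations.

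The other genes called at 0.25 were LOC110525339, LOC110529654 and zgc:171704. LOC110525339 had 9.95 counts in control, 0 at 0.25, then 17.6 and 15.3 at 2.5 and 25. It was at 0 again at 125 and at 6.20 at 250. LOC110529654 had 2.75 counts at 0.25 and 3.99 at 2.5 against 0 in control and 0 at 25, then 2.30 at 125 and 0 at 250. zgc:171704 went from 3.47 counts to 0 at 0.25, had 1.69 at 2.5 and 1.17 at 25, and was at 0 again at 125.

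At 2.5, LOC110507751 had 33.6 counts in control, 35.8 at 0.25, 0 at 2.5 and 38.1 at 25, a difference of -3.10 or lower where it was at 0 (adjusted p = 0.0017). LOC110526028 had 25.1, 25.7, 0 and 31.0 counts in the same order (adjusted p = 0.0428). rtn4r, which encodes the Nogo receptor, had 4.47 counts in control, 1.15 at 0.25 and 0 at 2.5 and 25 (adjusted p of 0.0056 and 0.0086). For all 3 the counts returned in at least one of the higher groups, and rtn4r stood at 3.11 counts at 125 and 5.16 at 250.

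blzf1, which encodes a Golgi matrix-associated protein, was the one gene called at 2.5 with reads in both pairs. It had 200 normalised counts in control, 168 at 0.25, 64.7 at 2.5 and 207 at 25, then 242 at 125 and 268 at 250. At 2.5 it fell by 1.62 ± 0.11 (SE) with an adjusted p of 0.0056. The pair at 2.5 lay below every other gill group, and at 25 the difference was 0.05 ± 0.11.

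A test of the mean of 0.25 and 2.5 against control called 11 genes (0.0487%), 6 higher (0.0266%) and 5 lower (0.0221%). The control pair was at 0 for 6 of them, a pair at 0.25 or 2.5 was at 0 for 4, and blzf1 was the one left. The 3 genes with a symbol that were not already called at 0.25 or 2.5 and had 7 or more counts in one of the 4 groups were myocd, si:ch211-217a12.1 and si:ch211-257p13.3. myocd, which encodes the cardiac and smooth muscle co-activator myocardin, had 0 counts in control and 7.45, 7.28 and 10.6 at 0.25, 2.5 and 25. si:ch211-217a12.1 had 0 counts in control and 21.4, 18.1 and 16.2, and si:ch211-257p13.3 had 7.76 counts in control, 0, 0 and 2.06.

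The first concentration at which genes with reads in both pairs were called higher was 25. There 84 genes were called (0.372%), 73 higher (0.323%) and 11 lower (0.0487%), and 1568 had an unadjusted p under 0.05 (6.94%). Of the 84, 66 carried a locus identifier only and 18 a symbol. Reads were present in both pairs for 60 of the 73 higher genes and for 1 of the 11 lower genes. In the other 13 higher genes the control pair was at 0, and in 10 lower genes the pair at 25 was at 0. With SEs raised as above 23 genes were called, 21 of them among the 60 higher genes with reads, and with the joint adjustment 50 were called.

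By their median, those 60 genes moved little at the lower concentrations and then rose through the series. Their median difference was 0.10 at 0.25 (range -0.38 to 0.95) and 0.08 at 2.5 (range -0.56 to 1.19), with none called. Of the 60, 3 and 4 had an unadjusted p under 0.05, beside 3.49% and 3.72% of all genes. The genes were chosen for their rise at 25, where their median was 1.11 and their range 0.62 to 3.24, and nothing is read from that. At 125 their median was 3.02 and at 250 it was 4.02. The level was higher at 125 than at 25 for 59 of the 60 and higher at 250 than at 125 for 58. No share of all genes is given beside these counts, so they only describe the 60.

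keap1a, the Keap1 gene described above, had 723 normalised counts in control, 717 at 0.25, 779 at 2.5 and 2068 at 25. Its difference at 25 was 1.51 ± 0.18 (adjusted p = 0.0286), and it reached 10018 counts at 125 and 23727 at 250. Its second copy keap1b had 1465, 1487, 1562 and 2925 counts, a rise of 1.00 ± 0.12 at 25 (adjusted p = 0.0298). In both, the pairs at 0.25 and 2.5 lay within 0.11 of control and the pair at 25 stood above them. Where SEs under the median of genes at a like mean level were raised to it, the adjusted p of each was 0.0595, and with the joint adjustment it was 0.0542 and 0.0568. nfe2l2a, which encodes Nrf2, was not called, at 0.28 ± 0.10 (adjusted p = 0.557).

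Among the genes that recycle and use glutathione, gsr, which encodes glutathione reductase, had 7544, 8358, 8112 and 18969 counts. It rose by 1.33 ± 0.13 at 25 (adjusted p = 0.0135). gsto1, an omega-class glutathione transferase gene, had 2048, 2171, 2063 and 3841 counts and rose by 0.91 ± 0.09 (adjusted p = 0.0159). abcc2, which encodes an export pump for glutathione conjugates, had 1924, 1983, 2015 and 4607 counts and rose by 1.26 ± 0.14 (adjusted p = 0.0229). In each of these 3 genes the pair at 25 stood apart while 0.25 and 2.5 lay within 0.15 of control.

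The genes that make glutathione were not called against the control pair and were called against a wider reference. gclc, the gene of the catalytic subunit of the rate-limiting enzyme, had 1439, 1429, 1411 and 3483 counts, a difference from control of 1.28 ± 0.21 with adjusted p = 0.0873. Against the mean of control, 0.25 and 2.5, that is 6 libraries in place of 2, its difference was 1.28 with adjusted p = 0.031. gss, the gene of glutathione synthetase, gave 0.58 ± 0.10 (adjusted p = 0.0873) and 0.56 (adjusted p = 0.0377) in the same comparisons. chac1, which encodes an enzyme that breaks glutathione down, gave 0.55 ± 0.09 (adjusted p = 0.0728) and 0.52 (adjusted p = 0.0316).

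The gene lists were chosen with earlier results of these data known, so the shares given for them here and below are no test. The list of Nrf2 targets and glutathione genes had 22 measured members. At 25, 6 were called higher and none lower, beside 0.372% of all genes, and 13 had an unadjusted p under 0.05, all higher, beside 6.94% of all genes. The median member differed by 0.54, while the quartiles of all genes were -0.18 and 0.24; at 0.25 and 2.5 the list's medians were 0.05 and 0.06. Against the mean of the 3 lower groups 10 members were called higher, beside 0.536% of all genes, the others being sqstm1, gclc, gss and chac1. sqstm1, which encodes the autophagy receptor p62, had 2105 counts in control and 3644 at 25 (adjusted p = 0.0728 against control and 0.022 against the 3 groups).

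Other well known members stayed unresolved at 25. hmox1a, a heme oxygenase gene, gave 0.29 ± 0.14 (adjusted p = 0.80), prdx1, a peroxiredoxin gene, 0.54 ± 0.15 (adjusted p = 0.371), and nqo1, a quinone reductase gene, 0.09 ± 0.20 (adjusted p = 0.999). srxn1, the sulfiredoxin gene, gave -0.03 ± 0.27 (adjusted p = 0.999).

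**Figure D2:**
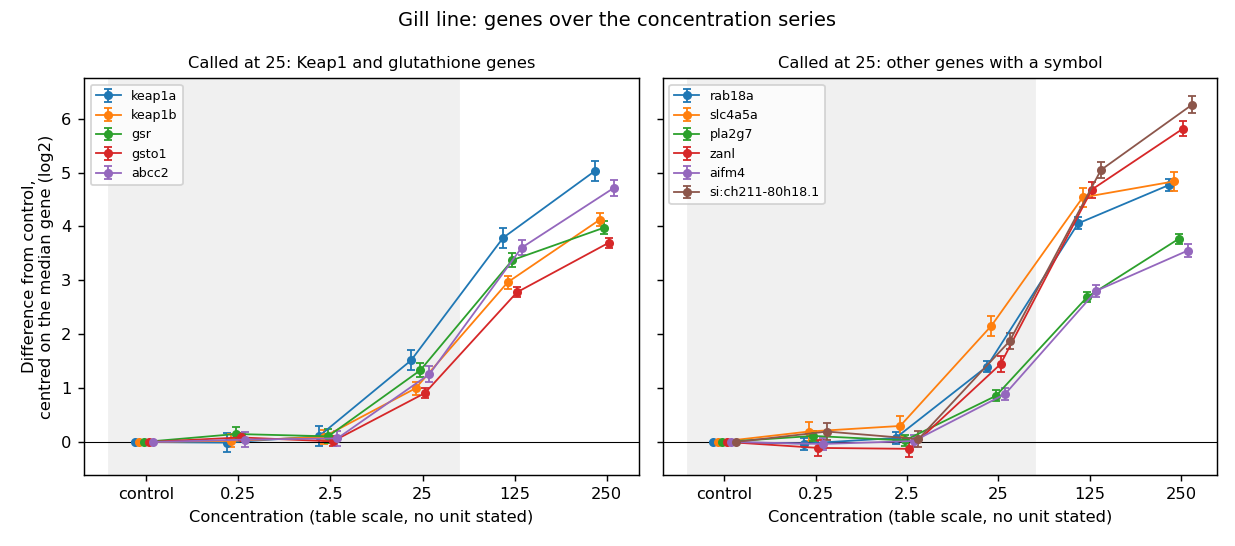
The difference from control relative to the median gene (log2, mean of 2 libraries ± SE) is plotted against the 5 concentrations for 11 genes called at 25, with the concentrations up to 25 shaded. The lines stay near 0 at 0.25 and 2.5, leave it at 25 (keap1a at 1.51, gsr at 1.33, slc4a5a at 2.16) and climb on at 125 and 250.

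Outside those lists, rab18a, which encodes a small GTPase of lipid droplets and the endoplasmic reticulum, had 600, 588, 632 and 1586 normalised counts. It rose by 1.40 ± 0.11 at 25 (adjusted p = 0.0103) and reached 10003 counts at 125 and 16425 at 250. slc4a5a, a gene of the bicarbonate transporter family, had 49.4, 56.6, 60.8 and 222 counts and rose by 2.16 ± 0.18 (adjusted p = 0.0104). It had the largest rise among called genes with a symbol and reads in both pairs.

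si:ch211-80h18.1 had 11.5, 13.2, 11.9 and 43.4 counts and rose by 1.87 ± 0.15 (adjusted p = 0.0103). pla2g7, which encodes a platelet-activating factor acetylhydrolase, rose from 218 to 395 counts, by 0.86 ± 0.10 (adjusted p = 0.025). aifm4 rose from 983 to 1823 counts, by 0.89 ± 0.12 (adjusted p = 0.0373), and zanl from 59.5 to 163 counts, by 1.45 ± 0.15 (adjusted p = 0.0164). In these, too, the pairs at 0.25 and 2.5 lay close to control. With raised SEs the calls of si:ch211-80h18.1 (adjusted p = 0.0618), pla2g7 (0.0776) and aifm4 (0.0658) were lost, and aifm4 also lost its call without centring (0.0516) and with the joint adjustment (0.0714).

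si:dkey-45d16.4 followed another course. It had 37.9 counts in control, 54.1 at 0.25, 86.8 at 2.5 and 103 at 25, and then 74.1 at 125 and 43.1 at 250. Its difference was 0.51 ± 0.13 at 0.25, 1.19 ± 0.13 at 2.5 (adjusted p = 0.0618) and 1.43 ± 0.13 at 25 (adjusted p = 0.0114). Its call at 25 was lost with raised SEs (adjusted p = 0.141) and without the control pair (adjusted p = 0.138). It was the single gene of the 60 whose level at 125 was below that at 25.

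Among the genes with a locus identifier only, LOC110531035 rose furthest of those with reads in both pairs. It had 2.0 counts in control, 3.19 at 0.25, 1.20 at 2.5 and 23.2 at 25, a difference of 3.24 ± 0.30 (adjusted p = 0.0114), and then 1679 counts at 125 and 7578 at 250. Its control value is under the floor of 3 counts, so the size of the rise is uncertain. LOC110500735 went from 565 counts to 2179, by 1.95 ± 0.21 (adjusted p = 0.0213), and LOC110503495 from 1283 to 3974, by 1.63 ± 0.11 (adjusted p = 0.0086).

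The other locus genes among the 20 largest rises ran from 1.88 (LOC110505016) to 2.38 (LOC110521807) where both pairs had reads. A run of 26 measured genes behind aldh16a1, 24 of them with a locus identifier only, held 11 of the genes called higher at 25, beside 0.323% of all genes, and none called at 0.25 or 2.5. The run was chosen with earlier results of these data known, so its share of called genes is no test. It took 8.90% of the gill counts in control and 13.4% at 25. Near-identical copies are common in salmonids, whose genome duplicated again in their ancestry. Reads may be shared between such copies, also within that run, so how the rise is split among its genes is uncertain.

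The genes at 0 in the control pair took more than one course. Of the 13 called at 25, 9 had reads in each of the 5 exposed groups and 3 had none at 0.25 and 2.5 either. Those 3 had few counts at 25 and more at 125 and 250. LOC110505309 went from 2.29 at 25 to 154 at 250, LOC110528697 from 1.17 to 33.3 and LOC118942049 from 1.66 to 18.4. myocd (at least 1.67 higher at 25, adjusted p = 0.0122), cacna1b, a calcium channel subunit gene with 0, 3.72, 4.30 and 6.79 counts (adjusted p = 0.0486), and si:ch211-217a12.1 (at least 2.25 higher, adjusted p = 0.0183) were among the 9. When the control pair was left out and 25 was set against the mean of 0.25 and 2.5, 106 of 22579 genes were called, 92 higher and 14 lower. Of the 60 genes with reads 57 were among them, and of the 13 genes at 0 in control 3 were. The 60 were chosen for a high pair at 25, which was used again here, and the 13 for their control pair, which was left out. Both counts thus follow in part from the choice of genes and are no separate test. In that comparison si:ch211-217a12.1 changed sign, to -0.28, as did LOC110539033 at -0.18, LOC110525210 at -0.26 and LOC110535623 at -1.11.

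The 11 lower genes at 25 were also mostly gaps in 1 pair. LOC110527995 had 47.3, 65.3, 43.7 and 0 counts, had a difference of -3.61 or lower at 25 (adjusted p = 0.0012), and stood at 59.2 counts at 125 and 35.9 at 250. LOC110502446 went from 15.5 counts to 0 at 25, a difference of -2.03 or lower (adjusted p = 0.0104). LOC118936482, the one lower gene with reads at 25, had 26.8, 15.1, 30.3 and 4.88 counts, and fell by 2.34 ± 0.26 (adjusted p = 0.0226). For 7 of the 11 the pair at 25 was the only one of the 6 groups at 0. xirp1, an actin-binding protein gene of striated muscle, had 1 count in control and 0 at 0.25, 2.5 and 25 (adjusted p = 0.0214 at 25), which is under the floor.

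Against the mean of control, 0.25 and 2.5, 139 genes were called at 25 (0.616%), 121 higher (0.536%) and 18 lower (0.0797%). They included 73 of the 84 called against control alone, and 66 further genes. Among the 121 higher genes 34 had a symbol and in 4 the control pair was at 0. The other 11 of the 84 were not called there. An F-test over the 4 groups called 61 genes (0.270%), 44 of them among the 84.

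The symbols named next were chosen after their values were seen. pgd, which encodes an NADPH-forming enzyme of the pentose phosphate pathway, went from 15612 to 23666 counts, a difference from the 3 lower groups of 0.57 (adjusted p = 0.022). zfand2a, a zinc finger gene that arsenite induces in mammals, went from 283 to 477 counts and differed by 0.78 (adjusted p = 0.022). gstr, a glutathione transferase gene of fish, differed by 0.57 (adjusted p = 0.0256) and abcb6a, a mitochondrial transporter gene, by 0.68 (adjusted p = 0.0426).

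The list of heat shock and chaperone genes had 9 measured members and a median of 0.47 at 25. None was called against control (0.372% of all genes were), and 4 had an unadjusted p under 0.05, all higher, beside 6.94% of all genes. Against the 3 lower groups 2 were called, beside 0.616% of all genes. hsp70b, an inducible chaperone gene, had 829, 723, 746 and 2024 counts, a difference from control of 1.29 ± 0.22 (adjusted p = 0.0984) and from the 3 lower groups of 1.40 (adjusted p = 0.0256). hsp70a had 5389, 5430, 5382 and 10927 counts, with 1.02 ± 0.18 (adjusted p = 0.116) and 1.01 (adjusted p = 0.044). The constitutive hspa8b was at 0.17 ± 0.09 (adjusted p = 0.832) and the co-chaperone gene bag3 at 0.47 ± 0.17 (adjusted p = 0.598).

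For metal binding and transport, none of 6 measured genes was called, beside 0.372% of all genes, and the median was 0.44. slc40a1, the iron exporter ferroportin, had 394, 388, 393 and 1212 counts, a difference of 1.62 ± 0.35 (adjusted p = 0.198). mt2, a metallothionein gene whose product binds metals through cysteines, had 43.4, 44.3, 54.7 and 65.2 counts, or 0.58 ± 0.26 (adjusted p = 0.748). Neither could be told from control after adjustment.

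Of the unfolded protein and integrated stress response genes, chac1 was the one of 4 members with an unadjusted p under 0.05. The share of all genes was 6.94%, and the list median was 0.25. In the list of xenobiotic enzymes and transporters abcc2, counted above, was the one of 5 members called, beside 0.372% of all genes. The median there was 0.14.

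The cholesterol list had 19 measured members with a median of -0.16, 15 of them below the median gene. None was called (0.372% of all genes were), and 2 had an unadjusted p under 0.05, both lower, beside 6.94% of all genes. lss, a lanosterol synthase gene, went from 707 to 536 counts, at -0.40 ± 0.18 (adjusted p = 0.746), and fdps, a farnesyl diphosphate synthase gene, from 631 to 516, at -0.29 ± 0.19 (adjusted p = 0.897).

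The remaining lists had no called member at 25, where 0.372% of all genes were called. The median was 0.03 over 6 genes of p53, growth arrest and apoptosis and -0.11 over 11 immediate early transcription factors. Over 9 inflammation and cytokine genes it was 0.24, and 2 of these had an unadjusted p under 0.05, beside 6.94% of all genes. Medians were -0.08 over 12 matrix and adhesion genes, -0.01 over 12 cell cycle genes and -0.06 over 3 tubulins. They were 0.13 over 2 proteasome and ubiquitin genes, -0.06 over 8 selenoprotein genes and -0.00 over 16 respiratory chain and ATP synthase genes. The respiratory and cell cycle medians lay nearest to that of all genes. Among single members tubb2b, a beta-tubulin gene, was at -0.18 ± 0.09 (adjusted p = 0.814) and selenoh at -0.27 ± 0.12 (adjusted p = 0.738).

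**Figure D3:**
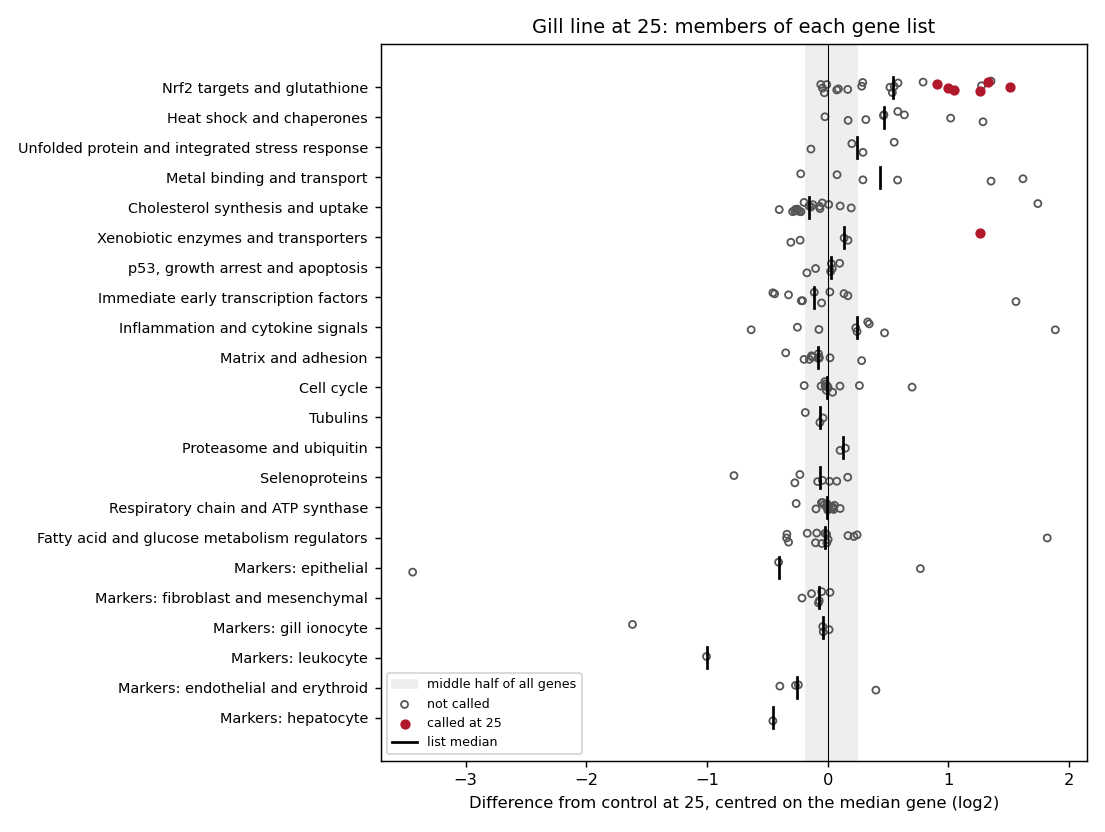
Each circle is a measured member of a gene list at 25, placed by its difference from control relative to the median gene (log2); filled circles are called, the black bar is the list median and the grey band runs between the quartiles of all genes (-0.18 to 0.24). The filled circles lie in the list of Nrf2 targets and glutathione, whose median is 0.54, and abcc2 stands also in the xenobiotic list.

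Among 15 regulators of fatty acid and glucose metabolism the median was -0.02. foxo1a, which encodes a transcription factor under insulin control, was the one with an unadjusted p under 0.05 at 25, beside 6.94% of all genes. It had 5.31, 15.996, 19.9 and 20.01 counts in the 4 groups. Its difference was 1.51 ± 0.28 at 0.25 (adjusted p = 0.395), 1.81 ± 0.28 at 2.5 (adjusted p = 0.247) and 1.82 ± 0.28 at 25 (adjusted p = 0.0686). All 3 exposed pairs lay above control, and the level rose again to 30.5 counts at 125 and 58.0 at 250.

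A benchmark dose is the lowest exposure at which a curve fitted to a gene departs from its control level by a fixed amount. Only genes marked as passing in the authors' deposited table were kept here and in the counts below. Of these, the authors' deposited table gave a benchmark dose for 4821 gill genes, with a median of 23.1. Among them foxo1a had the lowest in the authors' deposited table for genes with a symbol, 0.0316. The authors' deposited table placed 75 genes under 2.5. Of these, 25 were called at 25, beside 0.372% of all genes, and none at 0.25 or 2.5. An unadjusted p under 0.05 at 25 was found for 74 of them, beside 6.94% of all genes. The curves were fitted over all concentrations, the pair at 25 included, so overlap with the calls at 25 is no separate test. The authors' deposited table placed 8 genes, foxo1a among them, under 0.25. Those doses rest on the fitted curve alone, as no exposed group was measured there. In the authors' deposited table rab18a had a benchmark dose of 1.59, slc4a5a 1.62, keap1a 1.72, keap1b 1.74, gsr 1.86 and gsto1 1.92. Those values lie between 0.25 and 2.5, where the measured pairs of these genes lay within 0.30 of control. Of the 60 genes that rose at 25 with reads, 44 had a benchmark dose marked as passing in the authors' deposited table, with a median of 2.36 and a range of 0.254 to 20.7.

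The remaining genes with a symbol and a low benchmark dose in the authors' deposited table were not called at 25. grapa, at a benchmark dose of 1.26 in the authors' deposited table, went from 58.9 to 104 counts, or 0.82 ± 0.20 (adjusted p = 0.291). gas8, at 1.32 in the authors' deposited table, encodes a protein of motile cilia and went from 175 to 110 counts, or -0.67 ± 0.14 (adjusted p = 0.198). grinaa differed by 0.49 ± 0.14 (adjusted p = 0.396), and jph3 and stab2 had at most 4.75 counts in any of the 4 groups.

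The cut at 25 fell within a run of close values. Just inside lay LOC110504475, LOC110497843 and LOC118936428, each with an adjusted p of 0.0496, and just outside lay LOC110514489 and LOC110516667 at 0.051 and LOC110530336 at 0.0513. LOC118936428 had 251619 counts in control and 396757 at 25, a difference of 0.66 ± 0.09, so a gene with a small SE was called at a modest rise.

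The same concentration in the liver and gut lines, each with its own control pair, was used to ask which of the rises differed by line. The median gene moved there by -0.11 and -0.21. At 25, 16 liver genes (0.0690%) and 216 gut genes (0.988%) were called. Of the 60 genes that rose in gill with reads, 58 were measured in liver, where 52 lay above the median gene and 6 were called, and 55 in gut, where 46 lay above it and 23 were called. Of all shared genes 48.8% in liver and 47.7% in gut lay above the median gene. The median difference of the genes that rose in gill was 0.78 in liver and 0.62 in gut.

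keap1a rose in all 3 lines, by 2.01 ± 0.20 in liver (adjusted p = 0.0264) and by 1.39 ± 0.13 in gut (adjusted p = 0.0145). The gill line differed from liver by -0.50 ± 0.27 and from gut by 0.12 ± 0.23 (adjusted p of 1.00 and 0.991), which leaves room for a difference of either sign. gsr also rose in liver, by 1.09 ± 0.10 (adjusted p = 0.021), and in gut, by 0.83 ± 0.09 (adjusted p = 0.0197). si:dkey-45d16.4 rose by 2.24 ± 0.15 in liver (adjusted p = 0.0054) and 2.37 ± 0.28 in gut (adjusted p = 0.0254).

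The difference between lines itself was called for 8 of 16083 genes shared with liver (0.0497%) and for 10 of 15741 shared with gut (0.0635%), with 737 and 1068 at an unadjusted p under 0.05. rab18a was called in both. Its difference from control was 1.40 ± 0.11 in gill, 0.11 ± 0.11 in liver and 0.16 ± 0.09 in gut, so gill exceeded liver by 1.29 ± 0.16 (adjusted p = 0.0033) and gut by 1.24 ± 0.14 (adjusted p = 0.0025). LOC110503495 rose by 1.63 ± 0.11 in gill and 0.40 ± 0.09 in gut, a difference of 1.23 ± 0.14 (adjusted p = 0.0025). In liver it differed from control by 0.68 ± 0.28, and the gill excess over liver, 0.95 ± 0.30, was not called (adjusted p = 0.838). For abcc2 the gill line exceeded gut by 1.00 ± 0.19 and for slc4a5a by 2.85 ± 0.48, but neither difference was called (adjusted p of 0.0776 and 0.0831). In liver abcc2 differed from control by 1.01 ± 0.13 and slc4a5a by 2.69 ± 0.44, beside 1.26 and 2.16 in gill. Few counts underlie slc4a5a in the other lines, with 2 in the liver control and 6 in the gut control.

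**Figure D4:**
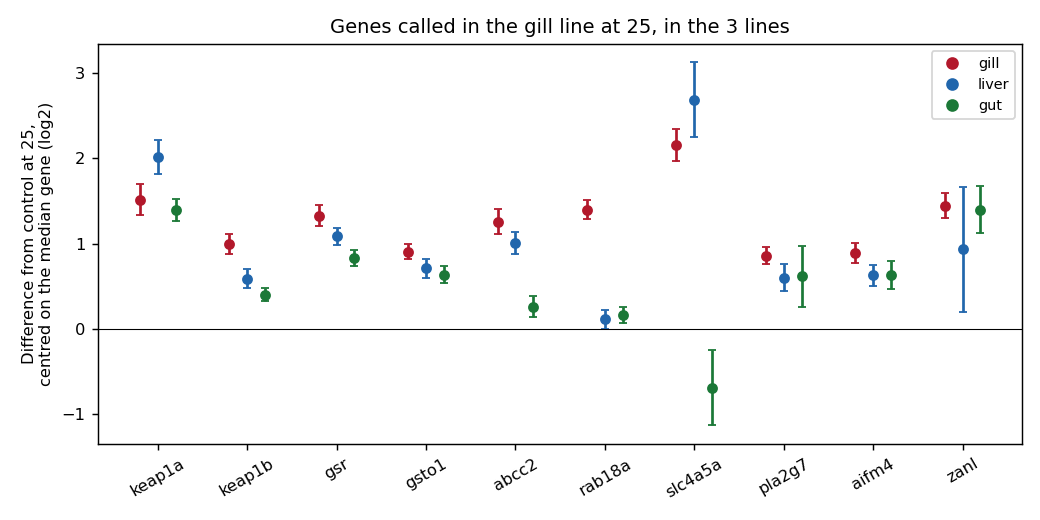
The difference from control at 25 relative to each line's own median gene (log2, mean of 2 libraries ± SE) is shown for 10 genes called in the gill line, in gill, liver and gut. rab18a is high in gill (1.40) and near 0 in liver (0.11) and gut (0.16), while keap1a and gsr are above 0.8 in all 3 lines.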

How the data were processed

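Reads were filtered with fastp and quantified with Salmon, per the submitters' processing notes; versions, build and the test used are not given in the sources used here. The authors deposited, per line, log2 differences of group means from control and a log2 mean; the deposited F statistic is recorded as a score; the deposited p-values belong to that F-test and to a lack-of-fit test. The authors deposited benchmark doses with bounds, whose file unit is recorded as other. Counts per library were not used here.

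Group means, the moderated variance and its 7.11 residual degrees of freedom were recovered from these columns (largest difference from the deposited p 1.32e-10; median SE 0.288). Counts were worked back with an offset of 0.5: of 21332 products of low counts, 76.7% lay within 0.05 of an odd whole number. Differences were centred on the median gene and tested two-sided, with Benjamini-Hochberg adjustment over 22579 genes, in Python 3.11.15 with numpy 2.4.6, scipy 1.17.1 and pandas 2.3.3; the recovery was tested on simulated data with limma 3.58.1 in R 4.3.3. Lines were compared by the difference over the root of the summed squared SEs with Satterthwaite degrees of freedom. Folds against a pair at 0 are bounds from a floor of 3 counts per library. All gene identifiers matched RefSeq (USDA_OmykA_1.1), which was used for names and gene order only; the 22 lists were matched by symbol.

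Named were all genes called at 0.25 and 2.5, genes among the 20 largest rises and 10 largest falls at 25, list members, the 10 lowest benchmark doses with a symbol, genes at the threshold and genes differing between lines. Some named genes are not reported here. The members and lists were chosen with earlier results of these data known. Alternatives covered centring, low-count filters, SE, offset, joint adjustment and the control pair. SEs rest on the spread between libraries; the floors cover counting error only.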

Additional observations from a re-analysis of the deposited data

Results flagged for a closer look

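These results came forward because the change at 25 differed between the gill line and another line by a test of the difference itself. In rab18a the gill line exceeded gut by 1.24 and liver by 1.29 on the log2 scale, with reads in every pair. For LOC110503495 the gill line exceeded gut by 1.23, while its excess over liver (0.95) was not called. LOC110531035 exceeded liver by 3.71, with 2.0 counts in the gill control and 12.3 in the liver control.

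In the others one gill pair was at 0, so the differences are fitted values that depend on the offset and are no bound. LOC110527995, at 0 in gill at 25, gave a gill minus gut difference of -6.55, while gut had 66.8 counts in control and 73.2 at 25. LOC110509111, at 0 in the gill control, gave 7.34 against gut, and LOC110539033 gave 5.35 against liver. si:ch211-217a12.1 gave 5.86 against gut and 5.23 against liver, and cacna1b gave 5.98 against liver.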

How the results depend on the processing

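With the deposited, uncentred differences 59 genes were called at 25 (50 higher, 9 lower), and 22 differed between gill and gut. Leaving out the 25% of genes with the lowest mean level gave 0 calls at 0.25, 2 at 2.5, 3 for the mean of both, 36 by the F-test over 4 groups and 4 between gill and liver. Raising each SE to the median SE of genes at a like mean level gave 0 at 0.25, 0 at 2.5, 23 at 25 (22 higher, 1 lower), 59 against the 3 lower groups, 0 for the mean of both, 16 by the F-test and 1 between gill and liver. The 23 included gsr, gsto1, abcc2, rab18a, slc4a5a and zanl, while keap1a and keap1b had adjusted p of 0.0595. An offset of 4 counts gave 0 at 0.25, 4 at 2.5, 7 for the mean and 5 between gill and liver. A mean count of at least 10, chosen after seeing the data, gave 0, 2, 3, 37 by the F-test and 4 between gill and liver. Adjusting over the 3 concentrations together gave 12, 16 and 50 calls, with keap1a at 0.0542 and keap1b at 0.0568. Without the control pair, also chosen after seeing the data, 106 were called, and 4 named genes changed sign: LOC110525210 to -0.26, LOC110535623 to -1.11, LOC110539033 to -0.18 and si:ch211-217a12.1 to -0.28. The cause of these changes was not tested. Named genes called under all 8 alternatives included gsr, gsto1, abcc2, rab18a, slc4a5a and zanl. No paired analysis was possible because the deposited columns are group means that carry no replicate; leaving out each replicate was not run for the same reason. With 2 libraries per group and a median SE of 0.288, small changes were not detectable. On simulated counts, 40% of genes with a true difference of 1 at 25, in either direction, were called, and 89% with 1.5. The changed genes there had at least 50 counts in control, and the spread between libraries was an assumed one. These rates thus do not cover genes with fewer counts, such as most of those called at 0.25 and 2.5. A gene that was not called may thus have changed.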
